A study of Mus musculus with 28 samples.

Results

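The effect of treadmill training on the liver transcriptome of diabetic mice was measured by setting 6 trained against 6 untrained livers. Members were chosen by their labels: of the 28 libraries of the study, the 12 liver libraries were used, and those from kidney were not. The mice were male db/db on a C57BL/KsJ background, which lack working leptin receptors and become obese and diabetic. They were 8 weeks old when an intervention of 8 weeks began. All 4 groups carried the same db/db mutation, so no lean liver entered the comparison. The control group was sedentary and received neither treatment. The HIIT group ran high-intensity intervals on a treadmill, 10 bouts of 4 min with 2 min of recovery between them, in 60 min sessions on 5 days per week. The semaglutide group received that agonist of the GLP-1 receptor, at a dose stated as 0.05 mg/kg in the sample titles but 30 nmol/kg daily in the protocol, amounts that do not match. The combined group received both. With 3 libraries per group, training and drug were crossed: HIIT and combined formed the trained arm (n = 6), control and semaglutide the untrained arm (n = 6). The drug was kept as a second factor in each fit.

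Exercise draws glucose and fatty acids from the liver, which replaces them by glycogen breakdown, gluconeogenesis and lipid handling, and repeated training is known to lower liver fat. Hepatocytes also run a daily programme of transcription factors, detoxify drugs and bile acids through cytochrome P450 and conjugating enzymes, and release acute phase proteins when inflamed. Genes of these programmes were therefore followed in turn, each as a level in FPKM (fragments scaled by transcript length and library size) and as a difference between arms on the log2(FPKM + 1) scale, trained minus untrained, with its standard error after ±. That scale understates differences of weakly expressed genes.

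Both libraries that stood apart were untrained. Control 3 had a median correlation of 0.939 with the other libraries and semaglutide 2 of 0.900, against 0.976 to 0.983 for the other 10. Summed markers of skeletal muscle reached 11120 FPKM in semaglutide 2 and at most 1.85 FPKM in any other library, and its summed adipocyte markers (2587 FPKM) and stellate cell and fibroblast markers (900 FPKM) were also the highest. Control 3 held the highest sums of macrophage markers (949 FPKM, against 456 FPKM in semaglutide 2 and 67.5 to 161 FPKM in the other 10 libraries) and of neutrophil markers (398 FPKM). List medians are therefore also given without these libraries. Medians within a drug stratum keep them, control 3 in mice without and semaglutide 2 in mice given the drug. Over all genes tested those medians were 0.05 without and -0.03 with the drug. Of all genes tested 51.9% were higher in the trained arm over the 12 libraries and 68.1% without these libraries, and counts of list members are to be read against those shares. The medians of 22 of the 44 lists used changed sign in at least 1 alternative setting. Summed FPKM ran from 518967 to 552993 per library. FPKM hold no read counts, so the depth behind each value is unknown.

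Training left no gene past the threshold. The fit across 10348 expressed genes with limma called 0 genes (0%) at an adjusted p under 0.05. The smallest adjusted p was 0.613. In limma it was 0.099 without control 3 and semaglutide 2 together. With array weights, which count poorly fitting libraries less, it was 0.088, and neither setting called a gene. Leaving out 1 library gave 0.00542 (without control 1) to 0.959 (without HIIT 3), with 0.118 without control 3. At an unadjusted p under 0.05 there were 696 genes (6.73%), of which 529 were higher (5.11%) and 167 lower (1.61%) in the trained arm. After median-ratio scaling of the libraries the split was 364 higher and 348 lower. In the same fit and libraries the drug called 184 genes (1.78%), 100 higher and 84 lower with semaglutide. The median size of the training difference was 0.10 and that of the drug difference 0.14 (log2). The 95% interval of the training difference lay within 2-fold of FPKM + 1 in either direction for 93.1% of the genes (9636). It lay within 1.5-fold on that scale for 79.0% (8175). Weakly expressed genes can differ by more in FPKM. Krbox5, with an interval of 0.18 to 0.71 (log2) over both drug strata, had means of 0.498 FPKM in control and 1.29 FPKM with HIIT. Its means were 0.598 FPKM with semaglutide and 0.964 FPKM with both. The intervals bound the training difference of most genes on this scale only. Estimates of at least 2-fold on it were found for 46 genes, 8 higher and 38 lower. Among the lower was the muscle marker Mylpf (-1.04), at 692 FPKM in semaglutide 2 and at most 1.81 FPKM elsewhere. Jchain, a plasma cell marker (-1.10), was 310 FPKM in semaglutide 2 and at most 1.10 FPKM elsewhere. How many of the 38 rest on such libraries was not counted. In 28 genes every trained library lay above every untrained library (0.271%), and in 6 every one lay below (0.058%).

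Map2k6, which encodes a kinase that activates p38 stress-signalling kinases, had the smallest p. Its levels were 2.54, 1.37 and 0.809 FPKM in control, 4.41, 3.78 and 4.14 FPKM with HIIT, 2.39, 2.28 and 2.21 FPKM with semaglutide and 4.57, 3.84 and 4.53 FPKM with both. The arms did not overlap, and the step from untrained to trained was seen with and without the drug. The difference was 0.87 ± 0.14 on the log2 scale with an adjusted p of 0.613. Srsf4, a splicing factor of the SR family, was also separated at a smaller difference of 0.29 ± 0.06, running from 19.5 to 23.2 FPKM in untrained and from 25.2 to 29.4 FPKM in trained livers. Rufy3, a protein of membrane transport, had a difference of 0.40 ± 0.09 and no overlap either.

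**Figure D1:**
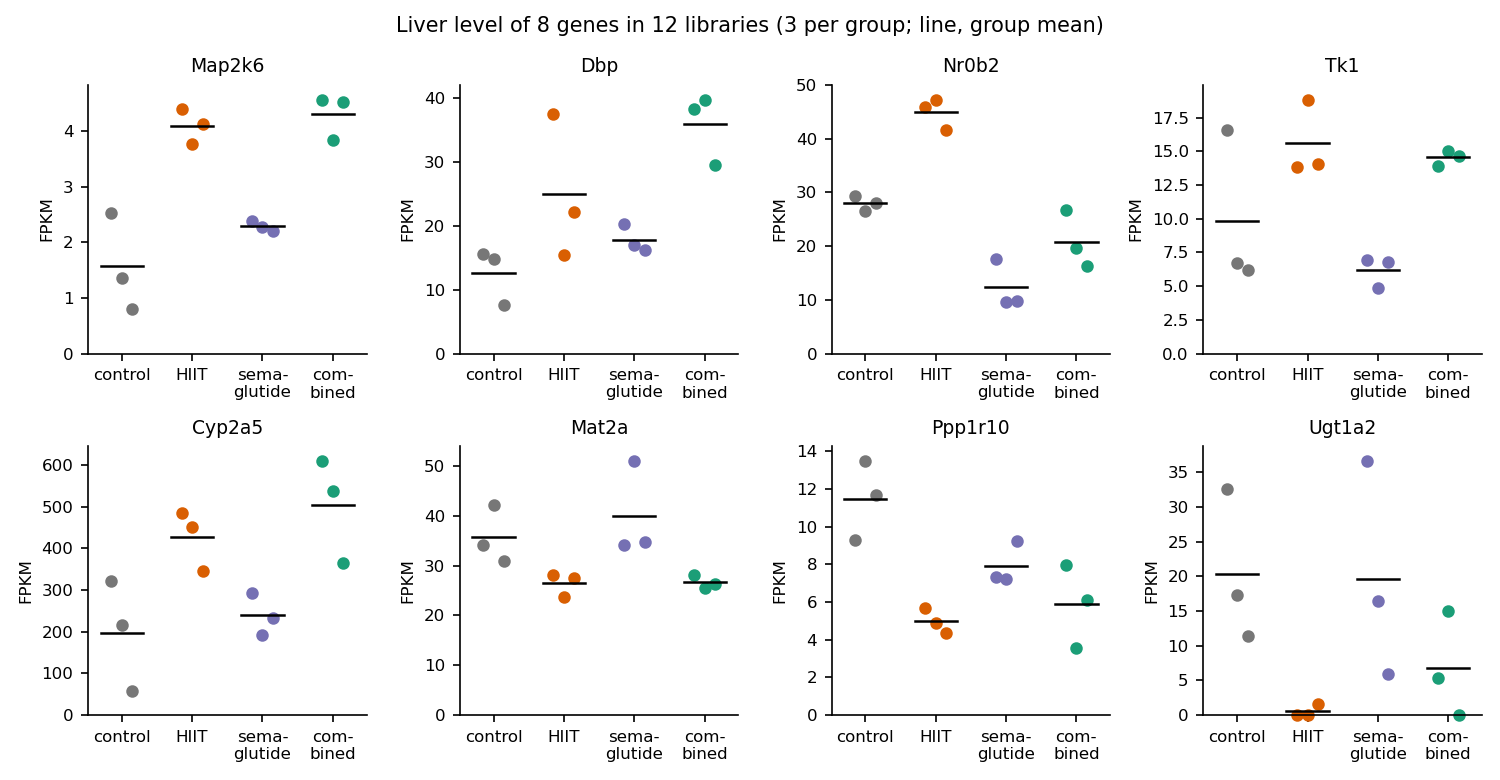
Level in FPKM (vertical axes, linear from 0) of 8 genes in the 12 liver libraries, by group; points are libraries and lines group means (n = 3). Map2k6, Cyp2a5 and Mat2a show no overlap between trained (HIIT, combined) and untrained (control, semaglutide) libraries, while Dbp, Nr0b2, Tk1, Ppp1r10 and Ugt1a2 do overlap.

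Nr0b2, which encodes SHP, the repressor that curbs bile acid synthesis, differed by both factors. It was 29.3, 26.5 and 28.0 FPKM in control and 45.9, 47.3 and 41.7 FPKM with HIIT. With semaglutide it was 17.7, 9.63 and 9.75 FPKM, and 26.7, 19.6 and 16.2 FPKM with both. Within mice without the drug the groups were apart, and within mice given the drug they overlapped. The training difference was 0.70 ± 0.15 (adjusted p = 0.613), 0.67 ± 0.22 without and 0.73 ± 0.22 with the drug. Nr0b2 fell with semaglutide in the same limma fit, a log2 difference of -1.13 ± 0.15 with an adjusted p of 0.00526. Trim14, an adaptor of antiviral signalling, had the same pair of directions, with 0.33 ± 0.07 for training and a fall with semaglutide (-0.80 ± 0.07, adjusted p = 0.00083).

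Dbp, a transcription factor that carries the clock's rhythm to detoxifying enzymes, was 15.5, 14.8 and 7.69 FPKM in control and 37.5, 15.5 and 22.2 FPKM with HIIT. It was 20.4, 16.97 and 16.2 FPKM with semaglutide and 38.4, 39.8 and 29.6 FPKM with both. Trained livers were mostly the higher ones, but HIIT 2, at 15.5 FPKM, lay below control 1 and the semaglutide libraries. The difference was 0.93 ± 0.21 (adjusted p = 0.613). Tk1, thymidine kinase, had a difference of 0.92 ± 0.20. Its untrained livers held 4.88 to 6.91 FPKM except control 1, at 16.6 FPKM, and its trained livers 13.9 to 18.8 FPKM. Without control 1, Tk1 (1.13, adjusted p = 0.00542) and the zinc finger gene Zfp467 (0.61, adjusted p = 0.0379) passed the threshold in limma, the 2 genes called in that setting. Dgkq, a diacylglycerol kinase (0.47 ± 0.10), and Fbxo8 (0.49 ± 0.11) completed the 10 genes of smallest p with higher trained levels. Dgkq, Trim14, Tk1 and Dbp each overlap another expressed gene on the opposite strand, and no source used here says whether counting used the strand, so their values are uncertain.

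Among the genes lower in trained livers, Mat2a was separated without overlap. It encodes a subunit of an enzyme that makes the methyl donor S-adenosylmethionine. It was 34.1, 42.3 and 30.8 FPKM in control, 28.1, 23.7 and 27.6 FPKM with HIIT, 34.2, 51.0 and 34.8 FPKM with semaglutide and 28.1, 25.5 and 26.4 FPKM with both. The difference was -0.48 ± 0.11 (adjusted p = 0.613). Nrbf2, a subunit of the autophagy lipid kinase complex (-0.29 ± 0.07), and Thap2 (-0.44 ± 0.11) were also apart in every library. Atg12, the ubiquitin-like protein of autophagosome formation, ran from 5.83 to 6.97 FPKM in untrained and from 5.26 to 5.71 FPKM in trained livers (-0.16 ± 0.06). Ppp1r10, a nuclear regulator of protein phosphatase, was 9.29, 13.5 and 11.7 FPKM in control and 5.70, 4.89 and 4.34 FPKM with HIIT. With semaglutide it was 7.31, 7.20 and 9.26 FPKM and with both 7.98, 3.55 and 6.08 FPKM, so that the drug groups overlapped. Its difference was -0.74 ± 0.18, -1.05 ± 0.23 without and -0.42 ± 0.23 with the drug. Rcan1, an inhibitor of calcineurin, had -0.62 ± 0.16. The other lower genes of smallest p were Rbm12b1 (-0.40 ± 0.08), the RNase P subunit Rpp38 (-0.42 ± 0.11), the general transcription factor subunit Gtf2e1 (-0.32 ± 0.08) and the nuclease Aen (-0.46 ± 0.12).

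Ugt1a2, a glucuronosyltransferase, had the largest estimate. It was 32.5, 17.3 and 11.4 FPKM in control and was listed at 0 in HIIT 1, at 0 in HIIT 2 and at 1.61 FPKM in HIIT 3. With semaglutide it was 36.6, 16.5 and 5.90 FPKM, and with both 5.27, 14.96 and 0 FPKM. The difference was -2.83 ± 0.69 (adjusted p = 0.613). The Ugt1a genes share their last exons within a single locus, and Ugt1a2 overlaps 7 expressed members on the same strand, so reads can be split between them in more than one way. Ugt1a1, the bilirubin-conjugating member, ran the other way, from 65.1 to 128 FPKM in untrained and from 95.1 to 162 FPKM in trained livers (0.43 ± 0.18).

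**Figure D2:**
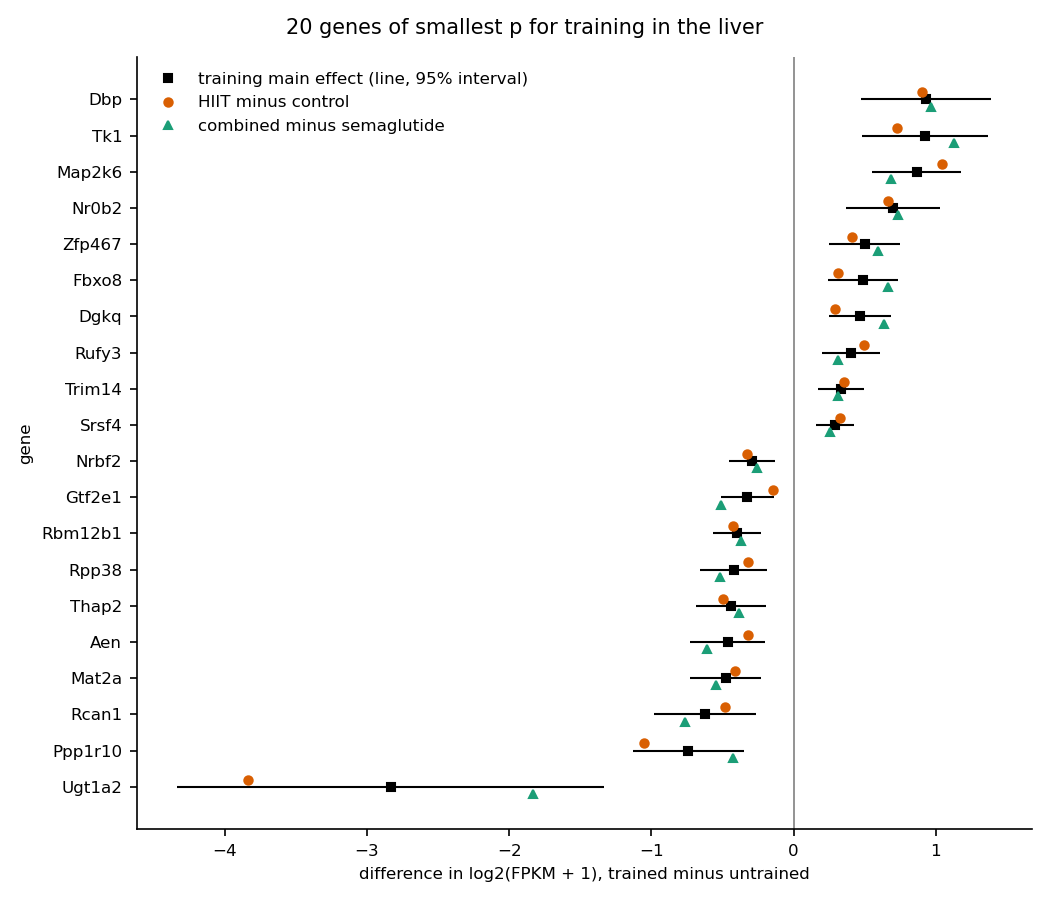
Difference in log2(FPKM + 1), trained minus untrained (horizontal axis), for the 20 genes of smallest p with the same sign in both drug strata. Squares with lines give the training main effect and its 95% interval, circles HIIT minus control, triangles combined minus semaglutide; circles and triangles lie on the same side of 0 for each gene, which the choice of genes fixed, and Ugt1a2 at -2.83 has the widest interval.

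Genes of the circadian clock and its outputs were examined as a group, since Dbp led it. Of 18 tested members 12 were higher in trained livers, with a median difference of 0.17 against 0.01 over the genes tested. The share higher was 66.7%, against 51.9% of all genes. None passed, and 9 had an unadjusted p under 0.05, each of them higher, where 5.11% of all genes were higher at that level. Tef, the close relative of Dbp, ran from 18.6 to 39.8 FPKM (median 32.0) in untrained and from 30.8 to 49.4 FPKM (median 44.2) in trained livers, a difference of 0.42 ± 0.12. Hlf, the third factor of that family, had 0.30 ± 0.11. The repressor Nr1d1 (REV-ERB alpha) had 0.44 ± 0.14, Per3 0.48 ± 0.16, Cry2 0.33 ± 0.13, Ciart 0.69 ± 0.24 and the cell cycle kinase Wee1, an output of the clock, 0.50 ± 0.15. The ranges of the arms overlapped in each of these genes. The 6 lower members, down to -0.35, are not named here. With semaglutide the list median was 0.34, against 0.06 over all genes tested. Wee1 ran from 0.886 to 1.46 FPKM in control and from 3.68 to 4.15 FPKM with semaglutide. Tef ran from 18.6 to 29.1 FPKM and from 34.9 to 39.8 FPKM in these groups. No source used here gives the hour at which livers were taken, so a difference in level and a shift in phase cannot be told apart. Without control 3 and semaglutide 2 the median was 0.13 with 11 of 18 higher, against 68.1% of all genes.

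The start regions of Dbp, Nr0b2, Nr1i3 and Cyp2a5 are shown because these genes had among the smallest p of their lists. Each holds 300 bases around the start, from the RefSeq promoter table of build GRCm38.p6, on the plus strand of its chromosome. Dbp is at chr7:45704997-45705296, Nr0b2 at chr4:133553126-133553425, Nr1i3 at chr1:171213720-171214019 and Cyp2a5 at chr7:26835089-26835388. Capitals mark any match, on either strand, to CACGTG, the E-box; to CCAAT, the CCAAT box; to GGGCGG, the GC box; to TATAAA, the TATA box; or to TTCNNNGAA, the STAT motif.
Dbp: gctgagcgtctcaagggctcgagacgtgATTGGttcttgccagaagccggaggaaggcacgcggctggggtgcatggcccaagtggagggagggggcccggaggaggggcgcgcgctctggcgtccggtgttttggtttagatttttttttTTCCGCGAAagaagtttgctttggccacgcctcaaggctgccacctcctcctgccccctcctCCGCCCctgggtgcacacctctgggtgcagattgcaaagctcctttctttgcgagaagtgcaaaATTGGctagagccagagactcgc
Nr0b2: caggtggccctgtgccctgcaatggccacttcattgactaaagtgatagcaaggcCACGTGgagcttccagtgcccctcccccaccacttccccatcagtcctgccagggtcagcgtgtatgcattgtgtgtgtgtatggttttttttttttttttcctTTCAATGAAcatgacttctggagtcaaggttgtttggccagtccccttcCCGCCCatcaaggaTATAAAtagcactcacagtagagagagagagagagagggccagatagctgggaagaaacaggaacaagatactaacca
Nr1i3: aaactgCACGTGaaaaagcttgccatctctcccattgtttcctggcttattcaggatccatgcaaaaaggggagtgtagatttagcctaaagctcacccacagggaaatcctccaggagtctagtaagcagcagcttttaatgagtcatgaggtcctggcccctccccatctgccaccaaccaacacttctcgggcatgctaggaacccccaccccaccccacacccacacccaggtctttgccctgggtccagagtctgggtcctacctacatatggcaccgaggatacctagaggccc
Cyp2a5: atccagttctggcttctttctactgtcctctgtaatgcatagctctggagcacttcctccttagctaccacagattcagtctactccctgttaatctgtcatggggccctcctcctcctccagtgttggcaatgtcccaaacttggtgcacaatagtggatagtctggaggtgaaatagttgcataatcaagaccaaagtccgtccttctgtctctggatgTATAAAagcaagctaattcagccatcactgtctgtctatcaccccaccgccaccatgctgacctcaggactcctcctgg
Among 8158 tested genes with a promoter in the table, 12% held the E-box, 43.1% the CCAAT box, 68.7% the GC box, 9.11% the TATA box and 7.96% the STAT motif. Of 13 clock genes with an entry, 11 (84.6%) held the CCAAT box and 4 (30.8%) the E-box. Dbp held the CCAAT box and Nr0b2 and Nr1i3 the E-box, while Nr0b2 and Cyp2a5 held the TATA box. These letters describe the windows and no factor's binding was measured.

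Most enzymes of drug oxidation had higher levels in trained livers over the 12 libraries, and none passed. Of 27 tested members of the phase 1 list 26 were higher (96.3%, against 51.9% of all genes), 7 with an unadjusted p under 0.05 (5.11% of all genes higher at that level). The median difference was 0.40. Without control 3 and semaglutide 2 it was 0.11 with 21 of 27 higher, where 68.1% of all genes were higher. Cyp2a5, which oxidises coumarin and nicotine, was separated without overlap, at 322, 215 and 56.5 FPKM in control, 486, 452 and 345 FPKM with HIIT, 294, 192 and 234 FPKM with semaglutide and 609, 537 and 366 FPKM with both. The difference was 1.24 ± 0.35, which did not pass. Cyp2a4 is a near-identical copy with which reads may be shared. Nr1i3, the xenobiotic sensor CAR, was 113, 63.1 and 51.1 FPKM in control and 116, 154 and 143 FPKM with HIIT. With semaglutide it was 243, 133 and 261 FPKM, and 280, 307 and 326 FPKM with both. Within each drug stratum the trained livers were the higher, while over both strata the arms overlapped, and the difference was 0.75 ± 0.21. Nr1i3 overlaps Tomm40l on the opposite strand. Cyp3a25 (0.49 ± 0.16), Cyp1a2 (0.48 ± 0.14) and Aox1, aldehyde oxidase (0.44 ± 0.13), had smaller differences.

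Conjugating enzymes followed with 27 of 28 members higher and a median of 0.30. Gstm1, a glutathione transferase, ran from 497 to 959 FPKM (median 785) in untrained and from 766 to 1887 FPKM (median 1123) in trained livers (0.66 ± 0.23). Gstm3 had a difference of 1.02 ± 0.40, which rested on combined 1 and 2 at 239 and 170 FPKM, since the other 10 libraries held 33.3 to 71.9 FPKM. Gclc, the rate-limiting enzyme of glutathione synthesis and a target of NRF2, had 0.55 ± 0.21, but the NRF2 list as a whole had a median of 0.12 with 12 of 19 members higher, and 0.11 with 15 of 19 without control 3 and semaglutide 2.

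Bile acid and sterol genes were higher in 20 of 21 cases over the 12 libraries (51.9% of all genes), with a median of 0.36 and 6 unadjusted (5.11% of all genes higher at that level). They included Cyp27a1 and Cyp7b1, enzymes of the alternative pathway of bile acid synthesis (0.38 ± 0.16 and 0.41 ± 0.17), Abcc2, a canalicular exporter (0.42 ± 0.15), and Abcg8, a subunit of the sterol exporter (0.49 ± 0.20). Cholesterol synthesis genes were higher in 24 of 24, median 0.31. Insig1, which retains the activator of these genes in the endoplasmic reticulum, had 0.71 ± 0.28. Without control 3 and semaglutide 2 the median was 0.10 with 21 of 28 higher for conjugation, 0.07 with 13 of 21 higher for bile acid and sterol genes and 0.03 with 16 of 24 higher for cholesterol synthesis. Over all genes it was then 0.05, with 68.1% higher.

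Of 9 hepatocyte markers 6 were higher and 3 lower in trained livers, none passed, and the median was 0.40. Without control 3 and semaglutide 2 the median was 0.18, again with 6 of 9 higher. Fgb, a fibrinogen chain that is also an acute phase gene, was lowest at -0.61 ± 0.36. The summed level of 9 markers ran from 24080 to 44040 FPKM in untrained and from 44880 to 50410 FPKM in trained livers, without overlap, and no marker was at 0 in any library. Albumin transcripts (Alb) made up most of this sum, at 27488, 15328 and 8822 FPKM in control, 33325, 31682 and 33121 FPKM with HIIT, 28090, 15281 and 27284 FPKM with semaglutide and 28701, 28542 and 31189 FPKM with both. The difference of Alb was 0.73 ± 0.29 (adjusted p = 0.680), and the 3 lowest libraries were control 2, control 3 and semaglutide 2. FPKM are relative to the whole library, so fewer hepatocytes, less Alb per hepatocyte and more RNA of other transcripts cannot be told apart. Muscle markers summed to 11120 FPKM in semaglutide 2, where all transcripts summed to 528294 FPKM. Acute phase transcripts held 12.4% of the summed FPKM in control 2 and 24.1% in control 3. In control 3 hepatocyte markers went both ways. Ahsg (3691 FPKM) and Apoa1 (3181 FPKM) were at their highest of all libraries there, and Alb and Cyp2e1 (1846 FPKM) at their lowest. The part of muscle and acute phase transcripts in the level of Alb was not tested. Pericentral hepatocyte markers had a median of 0.38 with 8 of 10 higher (51.9% of all genes) and 7 unadjusted (5.11% of all genes higher at that level). Among the 7 were Gulo (0.54 ± 0.16), Slc1a2, a glutamate transporter (0.59 ± 0.19), and Glul, glutamine synthetase (0.26 ± 0.11). Periportal markers had 0.17 with 9 of 10 higher and 0 unadjusted. Leaving out control 3 and semaglutide 2 gave 0.25 with 10 of 10 higher for pericentral and -0.10 with 3 of 10 higher for periportal markers. In that setting 68.1% of all genes were higher. The part of hepatocyte content in the lists of liver enzymes was not tested.

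**Figure D3:**
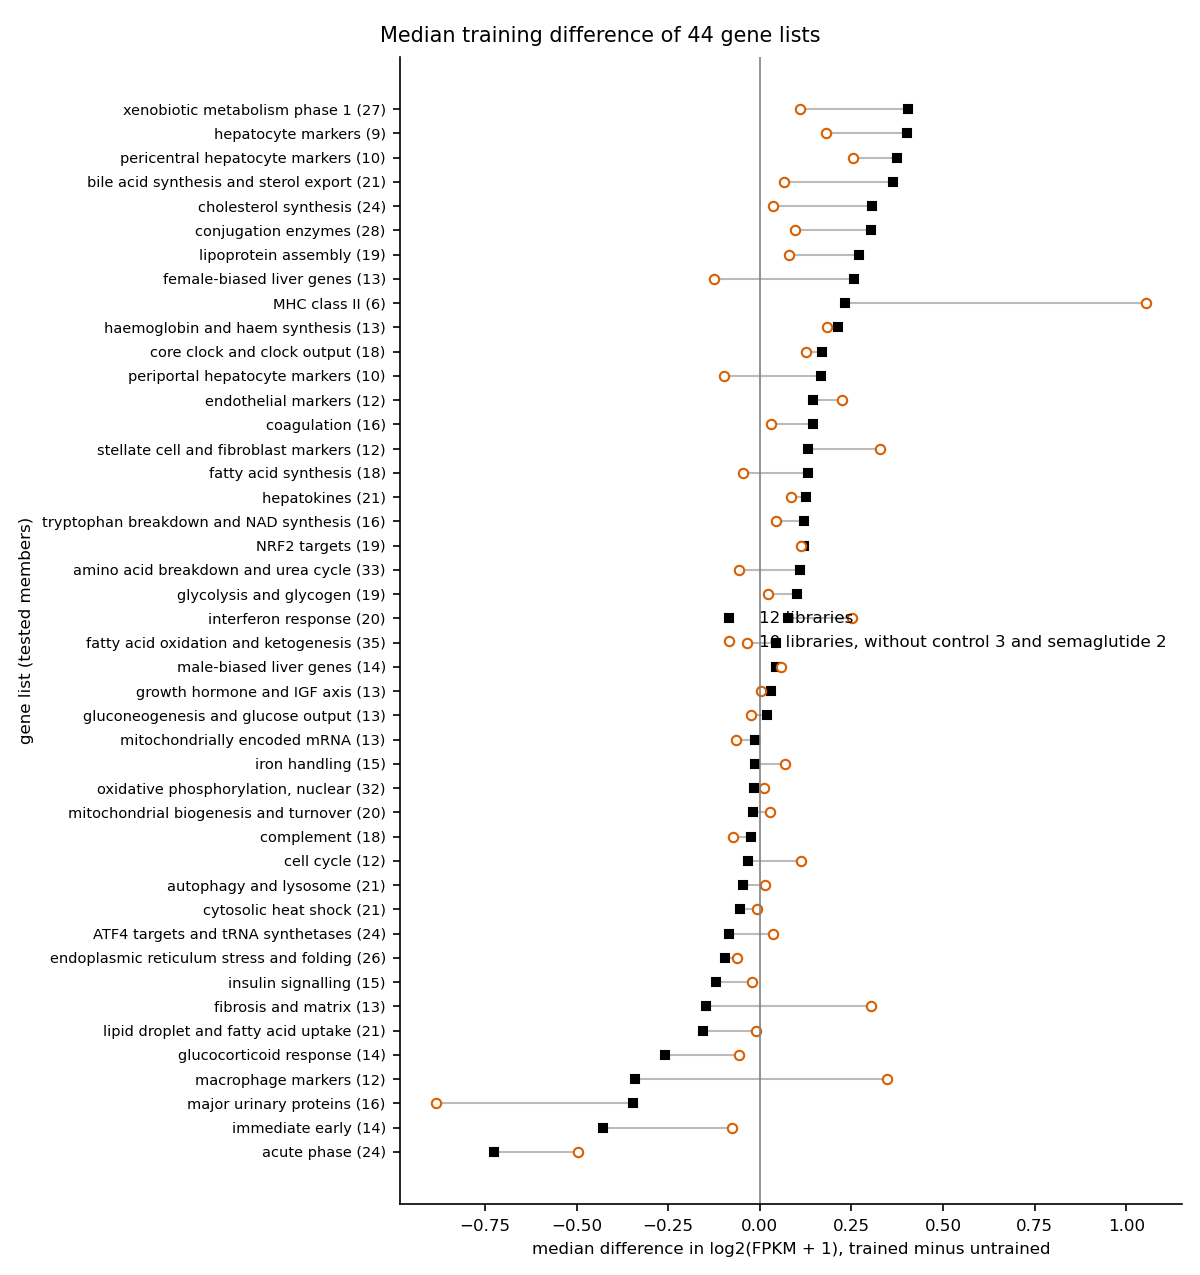
Median difference in log2(FPKM + 1), trained minus untrained (horizontal axis), of the 44 gene lists with at least 5 tested members (number in parentheses). Squares are from 12 libraries and open circles from 10, without control 3 and semaglutide 2; xenobiotic metabolism goes from 0.40 to 0.11, macrophage markers from -0.34 to 0.35 and MHC class II from 0.23 to 1.05.

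The acute phase list had the lowest median of the 44 lists, with 23 of 24 members lower in trained livers, a median of -0.73, 0 passed and 4 unadjusted. Of its members 4.17% were higher, against 51.9% of all genes. The 4 were lower, as were 1.61% of all genes at that level. The median was -1.66 in mice without the drug and 0.13 in mice given it. Saa1, a serum amyloid gene, was 2508, 15543 and 26104 FPKM in control and 281, 1662 and 221 FPKM with HIIT. With semaglutide it was 2910, 1538 and 1251 FPKM and with both 2499, 1715 and 755 FPKM. Control 2 and control 3 stood far above the other 10 libraries, control 1 did not, and the training difference was -2.34 ± 0.87 (adjusted p = 0.656). Acute phase transcripts made up 3.16, 12.4 and 24.1% of the summed FPKM in control and 1.83 to 3.86% in the other 9 libraries. Over the arms that share was 8.04 ± 8.74% (SD, n = 6) untrained and 2.72 ± 0.71% (SD, n = 6) trained, with p = 0.16 in a two-sided exact permutation test within drug strata and 0.64 adjusted over the 4 shares tested (400 arrangements, smallest possible p 0.005). Hamp, the iron hormone hepcidin, ran from 436 to 1408 FPKM (median 843) in untrained and from 283 to 655 FPKM (median 463) in trained livers (-0.81 ± 0.27). Without control 3 the median of the list was -0.36. Without control 3 and semaglutide 2 it was -0.50 with 2 of 24 higher, where 68.1% of all genes were higher.

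Macrophage markers had a median of -0.34 with 11 of 12 lower in trained livers and 0 unadjusted. Leaving out control 3 and semaglutide 2 turned it to 0.35 with 11 of 12 higher, in a setting where 68.1% of all genes were higher. Lyz2, lysozyme, was 198 FPKM in control 3 and 223 FPKM in semaglutide 2, and 9.01 to 24.5 FPKM in the other 10 libraries. MHC class II genes, which present antigen, were higher in 6 of 6 with a median of 0.23, -0.43 without and 1.07 with the drug, and 1.05 without both libraries that stood apart. H2-Ab1 was 8.36, 10.9 and 8.27 FPKM in combined livers against 1.94, 13.8 and 1.67 FPKM with semaglutide, where the value of 13.8 FPKM was that of semaglutide 2. Immediate early genes had a median of -0.43 with 12 of 14 lower. Nr4a1, a nuclear receptor induced within minutes of stimulation, was 2.00, 3.51 and 3.81 FPKM in control, 1.16, 0.700 and 0.636 FPKM with HIIT, 0.532, 4.75 and 0.819 FPKM with semaglutide and 0.454, 0.703 and 0.705 FPKM with both (-0.89 ± 0.29). Its high drug-group value was again semaglutide 2, and without both libraries the immediate early median was -0.08 with 6 of 14 higher.

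Lists of fuel metabolism had main-effect medians between -0.16 and 0.13, and most had opposite signs without and with the drug. Fatty acid synthesis had a median of 0.13 with 12 of 18 higher, 0.48 without and -0.16 with the drug, and -0.05 without control 3 and semaglutide 2. Fatty acid oxidation and ketogenesis had a median of 0.04 with 22 of 35 higher, and its regulator Ppara, a nuclear receptor that responds to fatty acids, ran from 4.77 to 10.5 FPKM in untrained and from 7.35 to 14.9 FPKM in trained livers (0.47 ± 0.14, adjusted p = 0.631). The median of fatty acid oxidation was 0.19 without and -0.08 with the drug. Gluconeogenesis had 0.02 with 7 of 13 higher (0.08 and -0.13) and glycolysis with glycogen metabolism 0.10 with 13 of 19 higher (0.32 and -0.15). Without control 3 and semaglutide 2 the medians were -0.03 for fatty acid oxidation, -0.02 for gluconeogenesis and 0.02 for glycolysis with glycogen metabolism. Irs2, an insulin receptor substrate, had -0.58 ± 0.19 and Trib3, a pseudokinase that binds Akt, 0.68 ± 0.23, while the insulin signalling list had -0.12, and -0.02 without both libraries. Plin2, the main coat protein of hepatocyte lipid droplets, ran from 153 to 277 FPKM in untrained and from 132 to 226 FPKM in trained livers (-0.39 ± 0.16), in a lipid droplet list with 14 of 21 lower and a median of -0.16. That median was 0.19 without and -0.42 with the drug, and -0.01 without control 3 and semaglutide 2. Nuclear genes of oxidative phosphorylation had a median of -0.02 with 0 of 32 unadjusted, and no member lay beyond -0.16 or 0.11. Its medians were opposite in the strata, 0.22 without and -0.26 with the drug, and the difference between strata was not tested for the list. The main-effect median was 0.01 without both libraries, -0.12 without control 3 alone and 0.09 without semaglutide 2 alone. Without semaglutide 2 alone the lipid droplet median was 0.08, and without control 3 alone that of fatty acid synthesis was -0.10. The share of mitochondrially encoded transcripts was 20.7 ± 3.95% (SD, n = 6) in untrained livers and 21.0 ± 2.66% (SD, n = 6) in trained ones (exact permutation p = 0.86, adjusted 0.935).

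Hormones secreted by the liver were mixed. Gdf2, which encodes the endothelial factor BMP9, had the smallest p of this list. It was 3.03, 1.56 and 1.39 FPKM in control, 3.76, 3.06 and 3.59 FPKM with HIIT, 2.81, 1.68 and 3.25 FPKM with semaglutide and 4.15, 4.10 and 4.05 FPKM with both. HIIT 2 lay just below semaglutide 3, and the groups were apart within each stratum, with a difference of 0.58 ± 0.14 (adjusted p = 0.613). Lect2, a hepatokine, had 0.58 ± 0.20 and the activin antagonist Fst -0.50 ± 0.19. Cytosolic heat shock genes had a median of -0.06, with 0.24 in mice without and -0.44 in mice given the drug, and -0.01 without both libraries. Bag3, a co-chaperone, ran from 9.72 to 39.7 FPKM in untrained livers, the highest in semaglutide 2, and from 7.45 to 11.7 FPKM in trained livers (-0.72 ± 0.24). Hspb8, its small heat shock partner, had -0.47 ± 0.16 and the inducible Hspa1b -0.64 ± 0.24. Over the 37 pathway and 7 marker lists used, 0 tested members passed for training (0% of all genes).

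Whether training acted alike without and with semaglutide was asked by the interaction. Gbp11, an interferon-induced guanylate-binding protein, was the 1 gene called (0.00966%), and 891 genes had an unadjusted p under 0.05 (8.61%). It was 3.26, 4.10 and 2.66 FPKM in control, 1.60, 1.35 and 1.56 FPKM with HIIT, 1.18, 1.24 and 1.10 FPKM with semaglutide and 4.06, 3.60 and 5.77 FPKM with both. Each single treatment sat low and the combined and control livers high, with no overlap between these pairs of groups. The training difference was -0.78 ± 0.16 without and 1.31 ± 0.16 with the drug, an interaction of 2.097 ± 0.23 (adjusted p = 0.0194 by limma). The estimate stayed between 1.93 and 2.90 in the alternatives tried, but the call ended without control 2, any HIIT library, semaglutide 1, semaglutide 3 or combined 1 (adjusted p 0.0674 to 0.117), without a filter on low values (0.111), without mitochondrial transcripts (0.0652) and with a replicate block (0.153).

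The next genes in rank did not pass, each with an adjusted p of 0.396. H2-T10, a class I antigen-presenting molecule, was 5.86, 5.95 and 8.34 FPKM in control, 5.10, 5.60 and 5.16 FPKM with HIIT, 3.88, 4.93 and 4.60 FPKM with semaglutide and 8.23, 8.90 and 8.14 FPKM with both (interaction 1.07 ± 0.18). Nlrc5, the transcriptional activator of class I genes, had 1.12 ± 0.21, with -0.55 ± 0.15 without and 0.57 ± 0.15 with the drug. Cyp2j9, a fatty acid epoxygenase, had 1.61 ± 0.30. Chordc1, a partner of the chaperone HSP90, went the other way at -0.94 ± 0.17. The interferon response list had a median of -0.18 without and 0.47 with the drug, 0.08 in the main effect and 0.25 there without control 3 and semaglutide 2. With array weights, which give less weight to libraries that fit poorly, limma called 24 interaction genes, among them H2-T10, the class I genes H2-Q4, H2-Q6 and H2-Q7 and the immunoproteasome subunits Psmb8, Psmb9 and Psmb10. Without control 1 it called 15, among them the acute phase genes Lcn2, Orm2, Hpx and Serpina3n. These were named after the calls were seen.

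**Figure D4:**
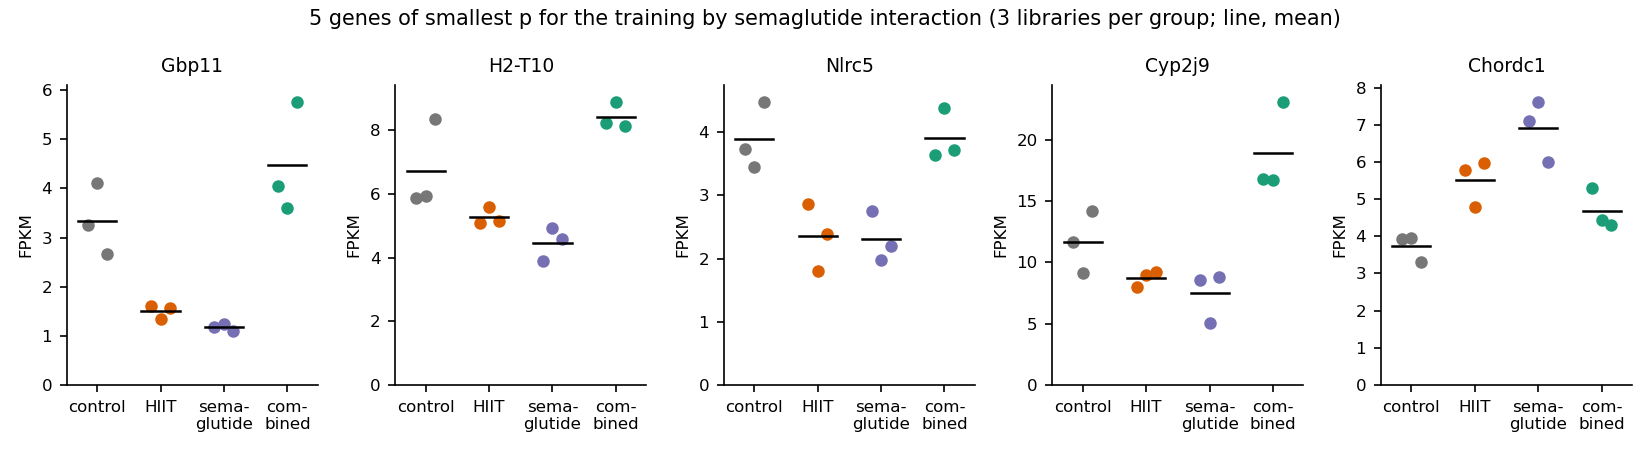
Level in FPKM (vertical axes, linear from 0) of the 5 genes of smallest interaction p, by group; points are libraries and lines group means (n = 3). Gbp11, H2-T10, Nlrc5 and Cyp2j9 are lower with HIIT than in control and higher with both treatments than with semaglutide, and Chordc1 shows the opposite order.

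Single transcripts showed what gene sums did not. Among 15927 transcripts tested one by one, 1 passed for training (0.00628%), ENSMUST00000173550 of Bag6, which encodes a chaperone of tail-anchored and misplaced membrane proteins, and 970 had an unadjusted p under 0.05. It was 2.36, 2.59 and 2.85 FPKM in control and 5.75, 4.21 and 3.64 FPKM with semaglutide. In trained livers it was listed at 0, 0 and 0.203 FPKM with HIIT and at no more than 8e-06 FPKM in the 3 combined libraries. Untrained and trained livers were fully apart. The transcript fell by 2.103 on the log2 scale (SE 0.158, limma adjusted p = 0.000587). Over the 17 alternatives added after the data were seen, including each library left out, the estimate was -4.86, with a pseudocount of 0.1, to -1.996 and the adjusted p 0.0004 to 0.0254.

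The Bag6 gene as a whole did not follow. Its 10 transcripts summed to 23.7, 19.8 and 20.2 FPKM in control, 23.8, 19.7 and 22.9 FPKM with HIIT, 19.3, 30.4 and 19.2 FPKM with semaglutide and 22.2, 19.8 and 20.5 FPKM with both. The arms overlapped fully. ENSMUST00000172571 of the same gene went the other way, at no more than 0.377 FPKM in untrained and 0.901 to 1.73 FPKM in trained livers (1.07 ± 0.14, adjusted p = 0.0799). ENSMUST00000174281 also had a higher estimate in trained livers, with overlap (1.14 ± 0.47, limma adjusted p = 0.774). It was 6.03, 0.0108 and 4.95 FPKM in control and 7.45, 2.75 and 4.19 FPKM with HIIT. With semaglutide it was listed at 0, 0 and 0 FPKM, and with both at 1.43, 4.17 and 1.37 FPKM. The remaining tested transcripts of the gene differed in both directions and did not pass. In the GENCODE annotation of build GRCm38 the called transcript has 24 exons and encodes 1122 codons, and ENSMUST00000172571 has 23 exons and 1082 codons. The called transcript starts with a non-coding exon of 70 bases, chr17:35135744-35135813 on the plus strand. Of its 23 exon junctions 1, from that exon to the next, is in none of the 9 other listed transcripts. The bases of that exon lie within the longer first exon of ENSMUST00000174281, chr17:35135730-35136004. Reads of the shared junctions have to be divided among transcripts by estimation, and its part in the result was not tested.

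For Vps33b, which acts in vesicle tethering, transcripts also differed in opposite directions, and none passed. Its coding transcript ENSMUST00000032749 was 1.26, 1.40 and 1.30 FPKM in control, 2.89, 2.71 and 2.37 FPKM with HIIT, 1.32, 1.42 and 1.42 FPKM with semaglutide and 2.76, 2.90 and 2.00 FPKM with both. No trained library overlapped an untrained one (0.61 ± 0.10, adjusted p = 0.289). ENSMUST00000150585, annotated as a target of nonsense-mediated decay, ran from 0.867 to 1.98 FPKM in untrained and from 0 to 0.470 FPKM in trained livers (-0.97 ± 0.19, adjusted p = 0.450). Their gene sum ran from 2.18 to 3.40 FPKM in untrained and from 2.46 to 3.04 FPKM in trained livers. Transcripts of Stx5a (-1.24 ± 0.22) and Apoe (1.23 ± 0.22) came next, each with an adjusted p of 0.348.

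**Figure D5:**
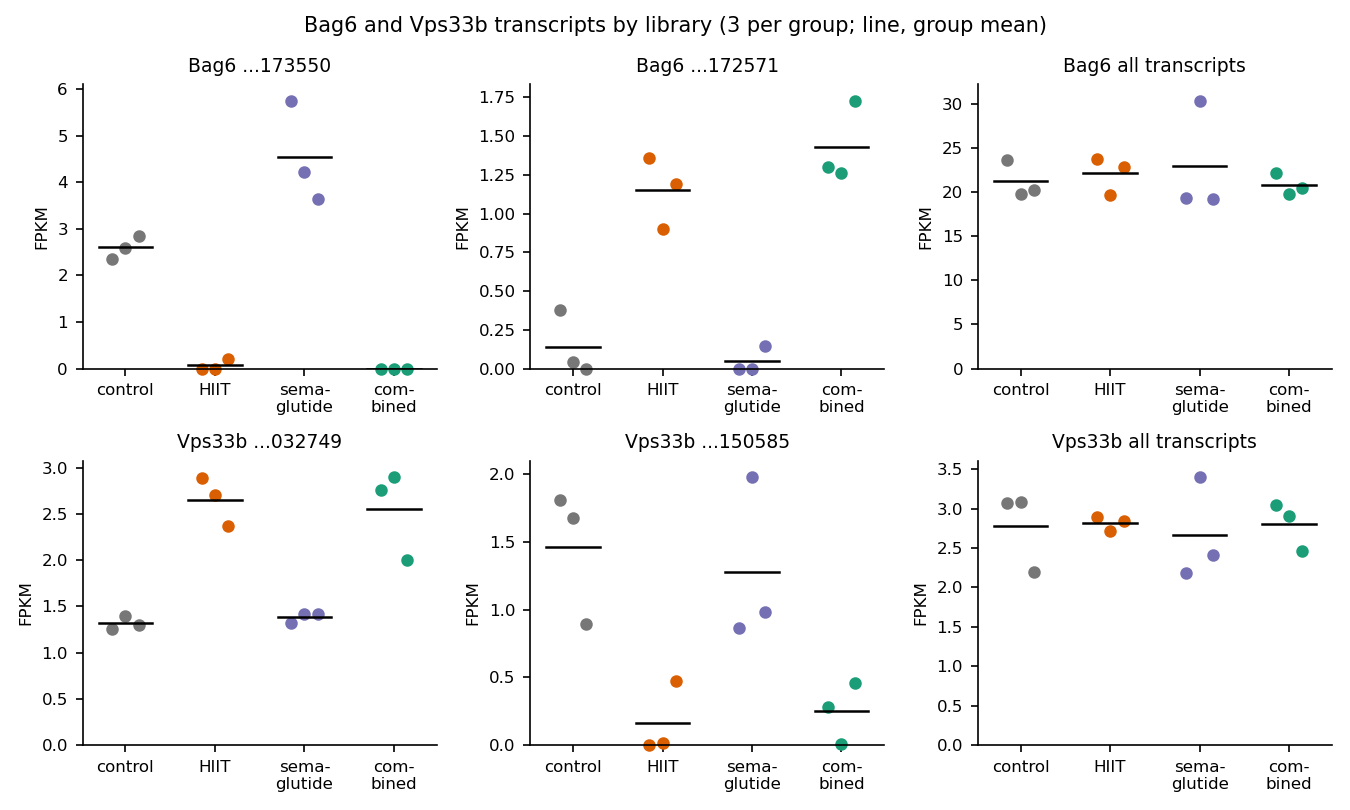
Level in FPKM (vertical axes, linear from 0) of 2 transcripts and the sum over all transcripts of Bag6 (top) and Vps33b (bottom), by group; points are libraries and lines group means (n = 3). The transcripts separate trained from untrained libraries in opposite directions, with Bag6 sums between 19.2 and 30.4 FPKM in every group.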

How the data were processed

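Polyadenylated liver RNA was sequenced by the authors in read pairs of 150 bases, per the labels' protocols. Tools named in the submitters' processing notes, without roles, are STAR 2.7.9a, StringTie 2.1.4, featureCounts 2.0.1, Trimmomatic 0.36, FastQC and CASAVA, with build GRCm39. The deposited values are FPKM for 66878 transcripts in 12 libraries, and no source used here states a scaling between libraries. They were summed here by gene name to 22116 genes, of which 4659 were at 0 in every library. A further 470 transcripts had no gene name and held 0.168 to 0.273% of a library's summed FPKM. In a search for whole reads, 18.7 to 23.9% of low values lay within 0.05 of a multiple of the best step, so reads were not recovered and precision rests on the spread between libraries.

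Genes at 1 FPKM or more in at least 3 of 12 libraries were tested as log2(FPKM + 1) with limma 3.58.1 (R 4.3.3; moderated variances that follow the mean level), with training and semaglutide as additive factors and no block. Benjamini-Hochberg adjustment ran over the genes tested, with a threshold of 0.05. A second fit held the interaction, and a fit of the 4 group means gave the within-stratum differences. Summed shares were compared by exact permutation. The fit was also run on simulated data with independent normal errors of equal spread in every library. Those data hold no library like control 3 or semaglutide 2, so the run cannot show how the fit behaves with them. Groups and replicate numbers came from the labels, where nothing says that each library is its own animal; the p-values therefore reflect variation among these samples, possibly technical. No libraries were identical (highest correlation 0.993). Same-numbered libraries deviated together in 2 of 18 pairs (correlation over 0.1; range -0.314 to 0.157), so numbers were not taken as pairs.

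Members and the 51 gene lists were chosen with earlier results of these data known. Of 854 listed genes 744 were tested, and lists are described by counts and medians with no test. Named genes were the 10 of smallest p per direction with the same sign in both strata, the 5 of smallest interaction p, and up to 3 of smallest p per list with at least 5 tested members. Other list members and the genes without overlap were named after their values were seen. A few named genes are not reported here. Of 151 named genes, 145 were found in the GENCODE annotation at hand, of build GRCm38 rather than the deposited build. The mitochondrial chromosome was left out of that search, so mt-Nd2, mt-Nd4l and mt-Co2 were not looked up. Of the named genes 17 overlap an expressed gene on the opposite strand and 4 on the same strand. Promoter sequences came from RefSeq, build GRCm38.p6. Alternatives were another pseudocount, other filters, median-ratio scaling, removal of mitochondrial transcripts, array weights, robust variances, a replicate block, single transcripts and libraries left out. Figures were drawn with Python 3.11.15 and matplotlib 3.10.9.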

Additional observations from a re-analysis of the deposited data

Results flagged for a closer look

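In 23 of 304 groups of 6 libraries 1 library stood apart, 15 untrained and 8 trained. Chance flags about 1 in 20 groups drawn from a single population. Each group here pools livers without and with the drug, and the genes are related, so the 23 cannot be judged by that rate. Each value below is the gap from that library to its neighbour as a share of the group's range. Semaglutide 2 was low for F5 (0.854), Gulo (0.739), Abcc2 (0.695) and Gcgr (0.63), and high for Col4a2 (0.862), the haemoglobin share (0.775), Esrra (0.698) and Bag3 (0.635). Control 3 was low for Cyp2a5 (0.702), Cyp2a4 (0.666) and Dbp (0.662) and high for Timd4 (0.64). Control 1 was high for Trib3 (0.754), Tk1 (0.729) and Zfp467 (0.642).

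Among trained libraries combined 3 was high for Srsf4 (0.669) and Ctsl (0.662) and low for Gclc (0.661) and Rufy3 (0.637). HIIT 2 was high for Tk1 (0.734) and Slc1a2 (0.664), HIIT 3 high for Apob (0.796) and combined 1 low for Insig1 (0.729).

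The training difference of Gbp11 depended on the drug, with an interaction of 2.097 (log2, limma adjusted p = 0.0194; range over the alternatives 0.000866 to 0.153).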

How the results depend on the processing

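The training count was 0 genes except without control 1, where it was 2 (leave-one-out range 0 to 2); tested one by one, transcripts gave 1. Genes at an unadjusted p under 0.05 numbered 1512 with array weights and 1066 without control 3 and semaglutide 2 together. The interaction count of 1 became 24 with array weights and 0 without a filter on low values, without mitochondrial transcripts and with a replicate block; leaving out 1 library gave 0 to 15. With the replicate block training called 0 genes, with 630 unadjusted. The 20 leading genes had the same sign in 440 of 440 values, which their choice by small p and equal sign in both strata largely fixed. Of 44 list medians 22 changed sign in at least 1 setting and 22 did not. Signs turned, with array weights and without both libraries, for Adgre1 (0.11, 0.19), Lyz2 (0.38, 0.54), Cox8a (-0.0114, -0.00502), mt-Nd4l (-0.00844, -0.0132), Ucp2 (0.0314, 0.0791), Tgfb1 (0.16, 0.23) and Col4a2 (0.20, 0.18). Leaving out 1 library gave -0.0329 to 0.15 for mt-Nd4l, -0.37 to 0.00959 for Tgfb1, -0.24 to 0.0117 for Fn1 and -0.58 to 0.16 for Col4a2. Without both libraries the mitochondrial share differed by -0.177 points and haemoglobin by 0.0442. Leaving out 1 gave -0.590 to 0.979 points for the mitochondrial, -0.0686 to 0.0435 for the haemoglobin and -0.605 to 0.0752 for the urinary protein share. The cause was not tested. Array weights moved the median of all genes to 0.07, with 1268 higher and 244 lower unadjusted. The alternatives for the Bag6 transcript were chosen after seeing the data. Depth is unknown, so low genes carry no counting interval.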
